A study of Mus musculus with 6 samples.

Results

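The genes described here encode the mitochondrial import machinery and the mitochondrial carriers, measured in mouse embryonic stem (ES) cells after knockdown of Ep400. Members were defined by name, with earlier results of these data known. They are the gene symbols of the array annotation that begin with Timm or Tomm and a digit (22 import machinery genes) or with Slc25a and a digit (46 carrier genes). These 68 genes were read by 116 probes, out of 19057 genes and 34885 probes with 1 symbol on the array. Of the members, 46 passed the filter on dim probes, 19 of the import machinery and 27 of the carriers. A probe passed where its detection p-value, the array's own measure of signal above background, was under 0.01 on at least 3 of 6 arrays.

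The shEp400 group comprised 3 samples of ES cells given a short hairpin RNA directed at Ep400, and the control group 3 samples whose transfection is labelled control. The insert of the control vector and the ES cell line are not named in the labels. Both groups grew on a feeder layer of embryonic fibroblasts inactivated with mitomycin C, in medium containing 15% serum and LIF, a cytokine that holds ES cells undifferentiated. Both were electroporated and selected with puromycin for 48 h starting 24 h after transfection, so each sample is a selected pool of cells together with any feeder cells collected with it. Nothing in the labels says that samples of a group came from separate cultures, so a p-value here speaks of sample-to-sample spread alone, and that spread may be technical.

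Most mitochondrial proteins are encoded in the nucleus, made in the cytosol and imported. The TOM complex of the outer membrane admits nearly all of them. TIM23 of the inner membrane then takes up proteins with a cleavable presequence, while small TIM chaperones of the intermembrane space hand hydrophobic proteins to TIM22, which inserts them into the inner membrane. The carriers of the Slc25 family are themselves clients of the small TIMs and TIM22, and exchange nucleotides, phosphate, carboxylates, amino acids and cofactors across the inner membrane.

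Ep400, the ATPase of the Tip60-p400 chromatin complex and the target of the shRNA, had normalized log2 signals of 8.88, 9.11 and 9.14 in shEp400 cells and 9.72, 9.58 and 9.56 in control cells. It was lower in all 3 shEp400 samples (log2 change -0.58, SE 0.16, limma adjusted p = 0.0159). With cyclic loess normalization (-0.42), or with control replicate 1 left out (-0.53), it did not pass. Detected probes numbered 16152 to 17337 on shEp400 arrays and 15441 to 16096 on control arrays. The 6 arrays shared 1 slide, each group on adjoining places, so that group and place on the slide cannot be told apart. The knockdown arrays differed widely from control: 4251 of 9736 tested genes (43.7%) were called at an adjusted p under 0.05, 20.6% higher and 23.1% lower. All log2 changes below are shEp400 minus control.

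Genes listed as markers of other cells moved with the groups. Of 25 feeder fibroblast markers listed, 21 were tested. In shEp400 cells 18 of these were higher (85.7%, against 20.6% of all genes tested) and 0 lower (against 23.1%). Their summed normalized linear signal was 36604 to 55441 in shEp400 samples and 9046 to 9924 in control samples. The collagen gene Col1a1 was detected in every sample, while Postn was at background on all 6 arrays and Col3a1 was detected on 1. Of 12 ES cell markers, all tested, 6 were lower (50%, against 23.1% of all genes tested) and 0 higher. All 12 had a log2 change below 0, with a median of -0.67, and -0.36, -0.56 and -1.11 on shEp400 arrays 1 to 3. Their sums were 50212 to 68311 in shEp400 samples and 73095 to 75909 in control samples. These sums lean on the brightest marker, Dppa5a (log2 change -0.21), while Sox2 had -1.60 and Utf1 -1.77. Pou5f1 and Nanog were detected on all 6 arrays, so ES cell transcripts were present in both groups. Of 8 endoderm markers 5 were tested and 3 were higher (60%, against 20.6% of all genes tested). Of 7 trophectoderm markers 3 were tested, 2 higher (66.7%, against 20.6%) and 1 lower (33.3%, against 23.1%). Gata4, Foxa2, Afp, Eomes and Elf5 were at background throughout. The part of other cells in the results below was not tested, and in RNA from whole cultures fewer cells of a type and less RNA per cell cannot be told apart.

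More import machinery genes were called lower than higher in shEp400 cells. Of 19 tested, 7 were lower (36.8%, against 23.1% of all genes tested), 2 were higher (10.5%, against 20.6%) and 10 did not pass. The share called in either direction, 47.4%, was near the 43.7% of all genes. The log2 change was below 0 for 16 of the 19 genes, its median was -0.34, against -0.06 over all genes tested, and the range ran from -1.48 for Timm8a1 to 1.81 for Tomm22. Taken array by array, the import median was -0.32 on shEp400 array 1, -0.40 on array 2 and -0.43 on array 3, beside feeder marker medians of 1.55, 1.82 and 2.11. The values of the groups did not overlap for 11 lower and 2 higher genes, where 30.3% and 25.1% of all genes were separate in these directions. Of the 9 calls, 5 (Timm8a1, Timm9, Tomm22, Tomm40 and Tomm40l) held in each of 15 alternative settings. Timm9, Tomm22 and Tomm40l each also had a passing probe that was not called over all probes. The count of lower import genes was 4 without control replicate 2 and 4 with cyclic loess. Over all genes 34.5% and 42.1% were called in these settings, against 43.7%. Of those calls 51% and 59.4% were higher, against 47.2%. Fewer of all genes were thus called lower too, and the excess of lower import genes was smaller. The count of higher import genes was 1 without control replicate 1 or 2 and without shEp400 replicate 2 or 3, where fewer of all genes were called higher too.

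**Figure D1:**
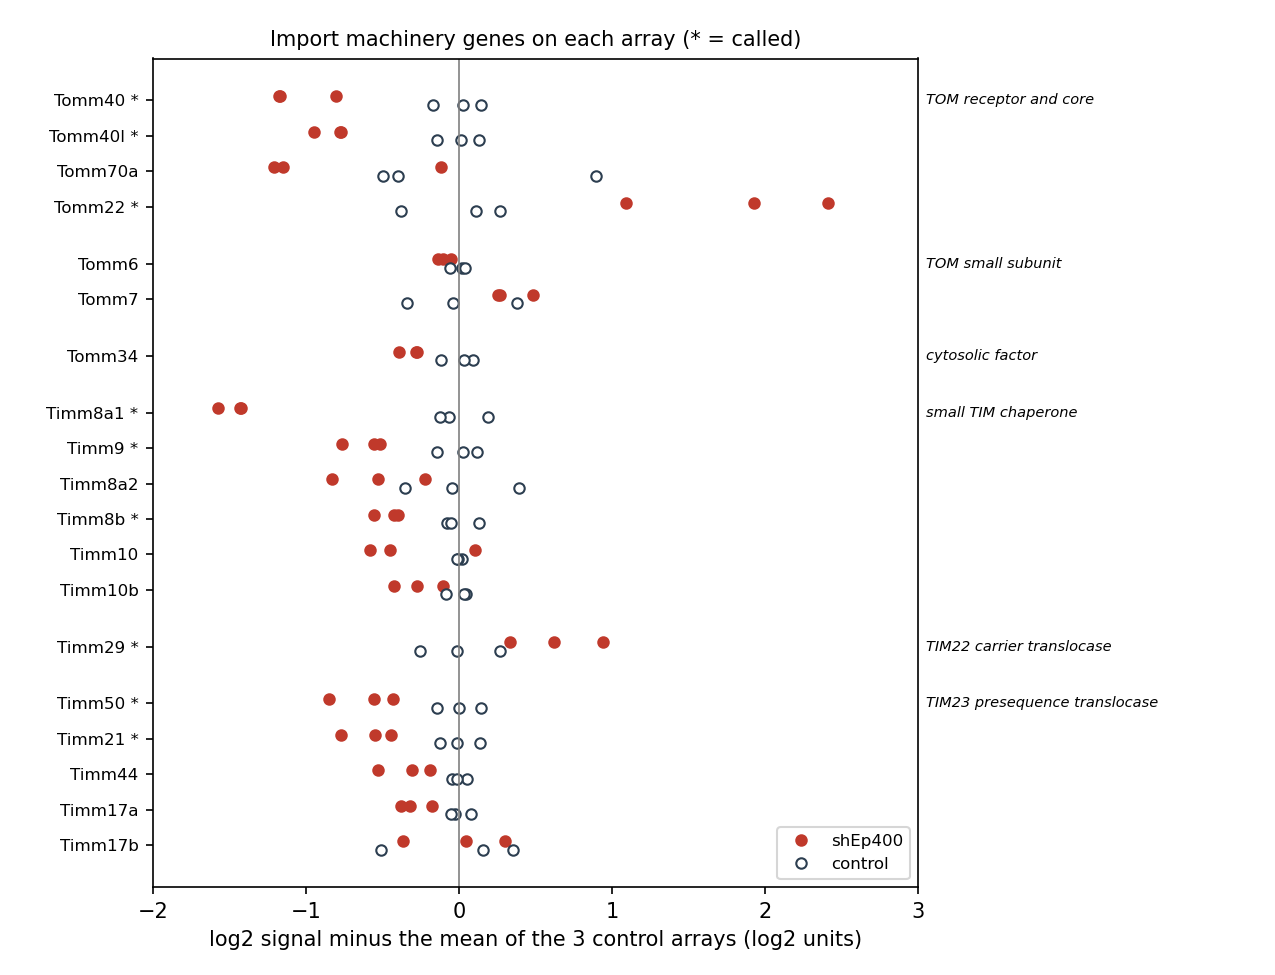
Log2 signal of each tested import machinery gene minus its mean over the control samples (x axis, log2 units), with 3 shEp400 samples as filled points above 3 control samples as open points, grouped by role; an asterisk marks a call. Timm8a1, Tomm40 and Tomm40l stand to the left with no overlap, and Tomm22 stands to the right.

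The outer membrane translocase held calls in both directions. Tomm40, its channel, had log2 signals of 7.26, 7.63 and 7.26 in shEp400 cells and 8.26, 8.58 and 8.46 in control cells. All shEp400 values lay well below all control values, a 2.07-fold fall (log2 change -1.05, SE 0.18, adjusted p = 0.00133). Tomm40l, a second gene for the channel protein, had 9.02, 9.01 and 8.84 in shEp400 cells and 9.65, 9.92 and 9.80 in control cells. It too was lower without overlap, by 1.78-fold (log2 change -0.83, SE 0.16, adjusted p = 0.00271). The other passing probe of Tomm40l had a log2 change of -0.62, while the other probe of Tomm40 did not pass the filter.

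Tomm22, the central receptor that holds the TOM complex together, went the other way on the probe that represents it. That probe read 7.87, 8.71 and 9.20 in shEp400 cells and 6.40, 6.89 and 7.06 in control cells. Every shEp400 value was above every control value, a 3.50-fold rise (log2 change 1.81, SE 0.31, adjusted p = 0.00144). The other Tomm22 probe, dimmer and detected on 3 shEp400 and 1 control arrays, read 5.26, 5.51 and 4.97 in shEp400 cells and 5.08, 5.18 and 5.95 in control cells, which overlap (log2 change -0.16, SE 0.25, adjusted p over probes = 0.644). The mean of both probes had a log2 change of 0.83 (adjusted p = 0.0165). The rise of Tomm22 rests on 1 of its 2 probes.

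The remaining TOM genes did not pass. Tomm70a, the receptor for carrier precursors, had 5.13, 5.07 and 6.16 in shEp400 cells, where 2 of 3 arrays detected it, and 7.18, 5.78 and 5.88 in control cells. Its values overlapped and spread widely (log2 change -0.83, SE 0.39, adjusted p = 0.113). It passed with shEp400 replicate 3 left out (log2 change -1.18). The small subunits Tomm6 and Tomm7 had log2 changes of -0.10 and 0.34. Tomm34, a cytosolic cochaperone of precursors, had -0.32 (adjusted p = 0.129), with non-overlapping groups, and passed in 4 alternative settings, at -0.47 with 75th percentile scaling.

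Among the small TIM chaperones 3 of 6 tested genes were lower (50%, against 23.1% of all genes tested) and 0 were higher (against 20.6%). All 6 had a log2 change below 0, as did 5306 of the 9736 genes tested. Timm8a1, whose human counterpart is mutated in deafness-dystonia syndrome, had the largest fall of all members. Its log2 signals were 9.84, 9.69 and 9.83 in shEp400 cells and 11.20, 11.14 and 11.45 in control cells. The groups were more than 1 log2 unit apart, a 2.78-fold fall (log2 change -1.48, SE 0.16, adjusted p = 0.000151). Timm9, which forms the main chaperone hexamer with Timm10, had 10.06, 10.03 and 9.81 in shEp400 cells and 10.44, 10.61 and 10.70 in control cells. It was lower by 1.53-fold (log2 change -0.61, SE 0.17, adjusted p = 0.0137), and its other passing probes had changes of -0.62 and -0.48. Timm8b fell 1.37-fold (adjusted p = 0.0394), a call lost in each of the 6 fits that left out 1 array; its change was -0.75 with 75th percentile scaling and -0.71 with centring on probes detected on all arrays. Timm10 had a log2 change of -0.31, which passed with shEp400 replicate 3 left out (-0.52), and Timm10b one of -0.27. Another Timm10b probe was called lower (log2 change -0.47, limma adjusted p over probes = 0.0491), and its remaining probe had -0.25 and was not called. Timm8a2, a copy of Timm8a1, had -0.53 (adjusted p = 0.0911) and passed with control replicate 3 (-0.70) or shEp400 replicate 1 (-0.68) left out. Probe sequences were not used here, so a probe may read more than one of such similar copies. Timm13 was at background on all 6 arrays.

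Within each array, the log2 ratio of Timm8a1 to Timm8b was -1.46, -1.63 and -1.33 in shEp400 samples and -0.44, -0.53 and -0.40 in control samples. The ratio was thus lower in every shEp400 sample, by 1.02 on average. The exact permutation test gave p = 0.1, the smallest that 3 samples against 3 allow (0.167 adjusted over the 5 pairs of related genes tested). The ratio of Tomm40 to Tomm40l was lower by 0.22 (exact permutation p = 0.1, adjusted 0.167). Its groups nearly met, at -1.3846 in shEp400 replicate 2 and -1.3839 in control replicate 1. The ratio of Timm17a to Timm17b was lower by 0.28 with overlapping groups (exact permutation p = 0.5).

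In the TIM23 translocase, 2 of 5 tested genes were lower and 0 were higher, and the 40% called in either direction was near the 43.7% of all genes tested. All 5 had a log2 change below 0. Timm50, the receptor that takes presequences over from TOM, had 9.03, 9.16 and 8.74 in shEp400 cells and 9.59, 9.73 and 9.44 in control cells. It was 1.53-fold lower (log2 change -0.61, SE 0.18, adjusted p = 0.0191), and it did not pass under cyclic loess or with control replicate 1 or 2 left out. Timm21, which links TIM23 to TOM and to the respiratory chain, had 9.26, 9.15 and 8.93 in shEp400 cells and 9.58, 9.69 and 9.84 in control cells. It was lower without overlap (log2 change -0.59, SE 0.17, adjusted p = 0.0184), and did not pass under cyclic loess or with control replicate 2, control replicate 3 or shEp400 replicate 2 left out. Its other probes had changes of -0.70, -0.65 and, on a dim probe, -0.12. Timm44, the anchor of the import motor, had a log2 change of -0.34 (adjusted p = 0.115), and its 3 probes lay between -0.47 and -0.34. Timm17a had -0.29 (adjusted p = 0.155) and passed in 4 alternative settings, at -0.58 with 75th percentile scaling, and Timm17b had -0.01. Timm23, the core subunit, was at background on every array, so it has no value here.

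Of the TIM22 translocase, Timm29, a subunit known from human cells, rose 1.55-fold. It had 8.83, 9.12 and 9.43 in shEp400 cells and 8.48, 8.24 and 8.76 in control cells, close but without overlap (log2 change 0.63, SE 0.21, adjusted p = 0.0333). The call was lost in 6 of 15 alternative settings, among them without control replicate 1 or 2 and without shEp400 replicate 2 or 3. Timm22, the channel, was detected on 1 array of each group and not tested.

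Promoter windows of 250 bases before to 50 after the start of transcription were taken from RefSeq (build GRCm38.p6), which matched 55 of 68 members, to show what lies upstream of the genes that moved most. The import genes printed are the 2 with the largest falls and the 1 with the largest rise: Timm8a1 at chrX:134541621-134541920 (minus strand), Tomm40 at chr7:19715380-19715679 (minus strand) and Tomm22 at chr15:79670618-79670917 (plus strand). Capitals mark matches, on either strand, to letters typical of an E-box (CACGTG, bound by MYC-type factors), an ETS factor site (CCGGAAG) or a site for NRF1, a regulator of nuclear genes for mitochondria.
Timm8a1: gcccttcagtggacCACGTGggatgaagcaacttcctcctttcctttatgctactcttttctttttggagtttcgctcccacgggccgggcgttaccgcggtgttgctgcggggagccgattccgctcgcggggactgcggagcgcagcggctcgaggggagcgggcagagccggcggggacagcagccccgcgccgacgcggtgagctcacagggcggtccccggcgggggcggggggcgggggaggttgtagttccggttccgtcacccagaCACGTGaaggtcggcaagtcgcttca
Tomm40: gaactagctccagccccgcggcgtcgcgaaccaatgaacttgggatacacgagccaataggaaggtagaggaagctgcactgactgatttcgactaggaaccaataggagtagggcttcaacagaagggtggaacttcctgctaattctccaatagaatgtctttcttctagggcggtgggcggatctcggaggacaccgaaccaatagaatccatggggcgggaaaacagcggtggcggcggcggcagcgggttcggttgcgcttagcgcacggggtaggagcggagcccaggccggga
Tomm22: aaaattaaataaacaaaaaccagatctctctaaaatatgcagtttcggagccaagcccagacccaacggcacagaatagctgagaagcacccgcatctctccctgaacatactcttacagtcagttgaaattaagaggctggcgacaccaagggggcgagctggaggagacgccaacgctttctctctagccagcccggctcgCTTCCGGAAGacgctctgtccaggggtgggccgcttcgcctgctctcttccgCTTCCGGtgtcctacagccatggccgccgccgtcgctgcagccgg
Timm8a1 held 2 E-box matches, Tomm40 held none of these letters, and Tomm22 held 3 ETS matches, of which 2 overlap on opposite strands. Over the import machinery, 10 of 21 promoter windows held an ETS match (47.6%), against 8.86% of all 32851 windows. An E-box match was in 3 of 21 (14.3%, against 7.15%) and an NRF1 match in 1 of 21 (4.76%, against 4.60%). A match is a description of letters and shows no binding.

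Among the carriers, too, more genes were called lower than higher. Of 27 tested, 9 were lower (33.3%, against 23.1% of all genes tested), 4 were higher (14.8%, against 20.6%) and 14 did not pass, and the 48.1% called in either direction was near the 43.7% of all genes. The median log2 change was -0.20, against -0.06 over all genes tested, with a range from -1.04 for Slc25a36 to 1.05 for Slc25a20. Array by array the carrier median was -0.30 on shEp400 array 1, -0.18 on array 2 and -0.18 on array 3, beside the feeder marker medians given above, whose part was not tested. The groups did not overlap for 12 lower and 5 higher genes of the 27, where 30.3% and 25.1% of all genes were separate in these directions. Of the 13 calls, 7 (Slc25a5, Slc25a14, Slc25a20, Slc25a33, Slc25a36, Slc25a37 and Slc25a41) held in every alternative setting that tested them. Leaving out control replicate 1, control replicate 2 or shEp400 replicate 2 brought the count of lower carriers to 5. Over all genes 34.5%, 34.5% and 32.7% were called in these fits, against 43.7%. Of those calls 50.2%, 51% and 49.7% were higher, against 47.2%. Fewer of all genes were thus called lower too, and the share of carriers called lower was then near that of all genes.

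**Figure D2:**
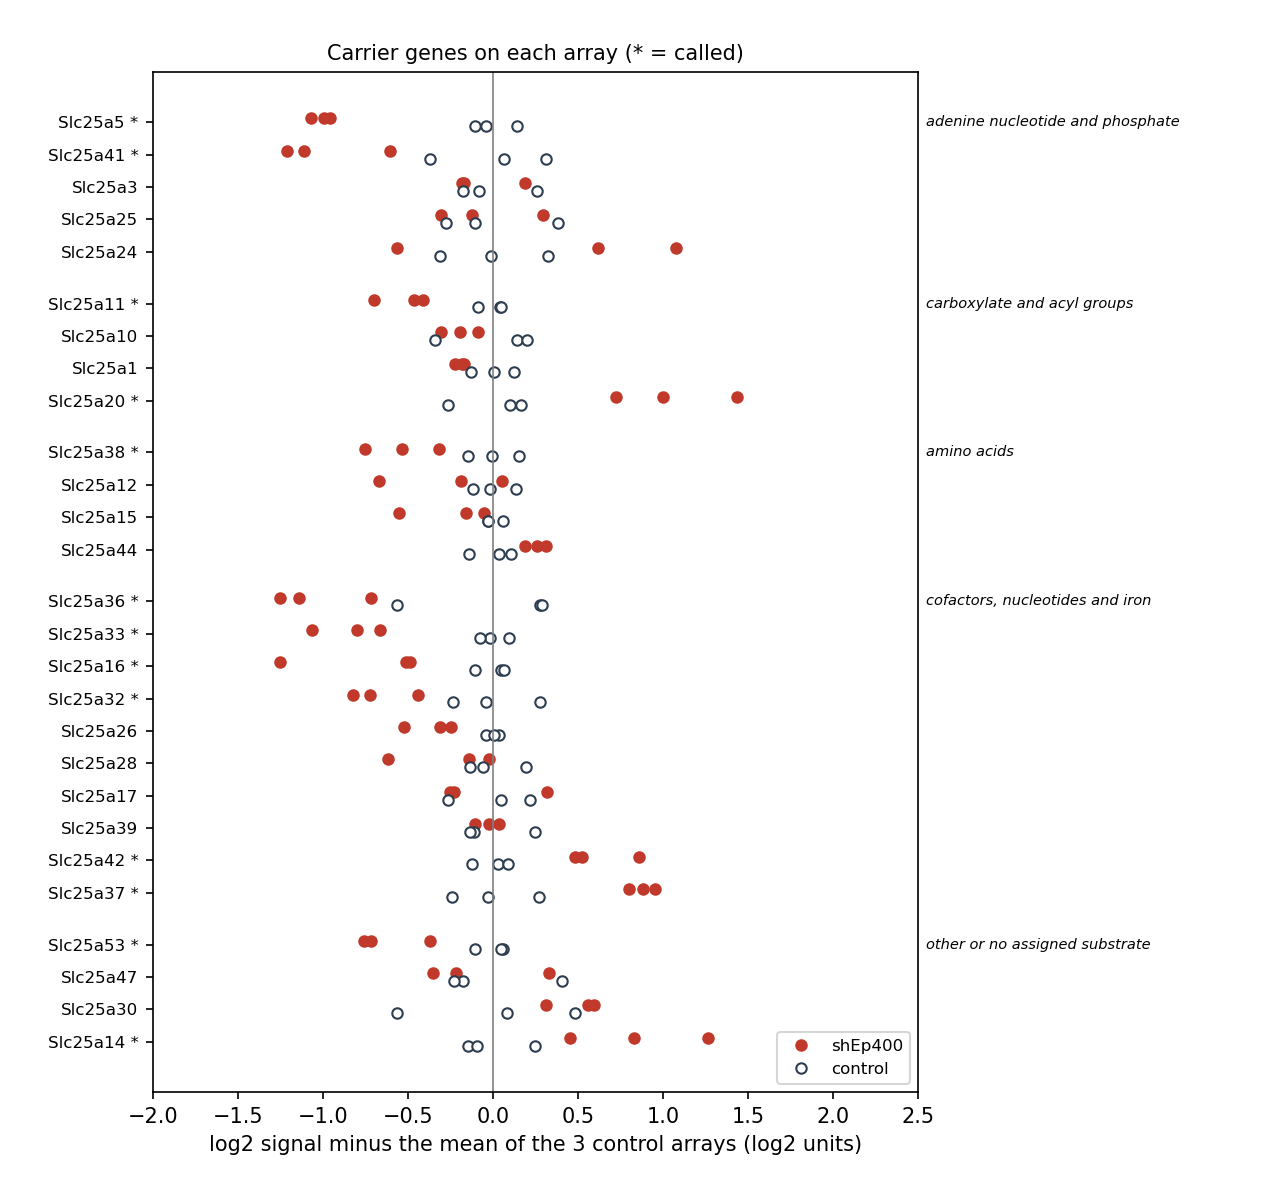
Log2 signal of each tested carrier gene minus its mean over the control samples (x axis, log2 units), with 3 shEp400 samples as filled points above 3 control samples as open points, grouped by substrate; an asterisk marks a call. Slc25a5 shows tight groups about 1 log2 unit apart, and Slc25a20 and Slc25a37 lie to the right of control.

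Among carriers of adenine nucleotides and phosphate, Slc25a5, the ADP/ATP carrier of dividing cells, was lower. Its log2 signals were 12.53, 12.57 and 12.46 in shEp400 cells and 13.67, 13.49 and 13.42 in control cells. The 3 values of each group lay close together and apart from the other group, a 2.01-fold fall (log2 change -1.01, SE 0.16, adjusted p = 0.000883). Slc25a4 and Slc25a31, the ADP/ATP carriers best known from muscle and from germ cells, were at background on all 6 arrays. Slc25a3, which imports the phosphate used for ATP synthesis, had 10.90, 10.88 and 11.26 in shEp400 cells and 11.32, 10.99 and 10.89 in control cells. Its groups overlapped (log2 change -0.05, SE 0.19, adjusted p = 0.841), and a dimmer probe had -0.40 (adjusted p over probes = 0.0908).

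Of the ATP-Mg/phosphate carriers, which shift the total nucleotide pool, Slc25a41 had 4.86, 5.37 and 4.76 in shEp400 cells, where 1 of 3 arrays detected it, and 5.60, 6.04 and 6.28 in control cells. It was lower without overlap (log2 change -0.98, SE 0.23, adjusted p = 0.00697), but near background, and the change was -0.33 without background correction. The control arrays alone were enough for its probe to pass the filter, which favours a lower value in shEp400 cells. Slc25a41 is counted among the 9 lower carriers, and it was not tested among probes detected on all arrays. Slc25a25 had a log2 change of -0.04. Slc25a24 had 4.86, 6.04 and 6.49 in shEp400 cells and 5.74, 5.41 and 5.11 in control cells, with overlap (log2 change 0.38, adjusted p = 0.425). Its other passing probe, detected on 3 shEp400 arrays and 1 control array, was called higher (log2 change 1.48, adjusted p over probes = 0.00254), and the mean of both probes passed (0.93, adjusted p = 0.0348). The shEp400 arrays alone were enough for that other probe to pass the filter, which favours a higher value there. Without shEp400 replicate 1 the representing probe passed as well (0.85, adjusted p = 0.0175), so 1 array decides this value. Slc25a23 was at background on all arrays.

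Among carriers of carboxylates and acyl groups, Slc25a20, which brings acylcarnitines in for fatty acid oxidation, showed the largest rise of any carrier. It had 11.55, 11.11 and 10.84 in shEp400 cells and 10.27, 9.85 and 10.21 in control cells. All shEp400 values were above all control values, a 2.08-fold rise (log2 change 1.05, SE 0.22, adjusted p = 0.00352), and its other passing probe had 0.72 (adjusted p over probes = 0.0119). Slc25a11, which exchanges oxoglutarate for malate in the malate-aspartate shuttle, had 9.01, 9.07 and 8.78 in shEp400 cells and 9.39, 9.52 and 9.52 in control cells. It was 1.44-fold lower (log2 change -0.52, SE 0.16, adjusted p = 0.0252), with its other probes at -0.51 and -0.64. That call did not hold under cyclic loess or in 4 of 6 fits that left out 1 array. The citrate carrier Slc25a1 and the dicarboxylate carrier Slc25a10 had log2 changes of -0.19 and -0.20 and did not pass.

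Of the amino acid carriers, 1 of 4 tested was lower (25%, near the 23.1% of all genes tested) and 0 were higher. Slc25a38, which imports glycine for haem synthesis, fell 1.45-fold (log2 change -0.53, SE 0.18, adjusted p = 0.0343), with 9.77, 9.99 and 10.21 in shEp400 cells and 10.52, 10.38 and 10.68 in control cells. The call was lost with cyclic loess, with the mean of its probes (a log2 change of -0.39) and in 5 of 6 fits that left out 1 array. Slc25a12, an aspartate/glutamate carrier, had a log2 change of -0.27 and did not pass on its brighter probe. Its dimmer probe was detected on 3 control arrays and 0 shEp400 arrays and was at least 1.24-fold lower (adjusted p over probes = 0.0225). That probe passed the filter through the control group alone, which favours a lower value in shEp400 cells. Slc25a13, the partner of Slc25a12 in other tissues, was not tested, nor were the glutamate carriers Slc25a18 and Slc25a22. The ornithine carrier Slc25a15 had -0.26 and the branched-chain amino acid carrier Slc25a44 had 0.25, and neither passed.

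Carriers of cofactors, nucleotides and iron were the largest group tested, with 4 of 10 lower (40%, against 23.1% of all genes tested) and 2 higher (20%, near the 20.6% of all genes). Slc25a36, a pyrimidine nucleotide carrier, had 8.32, 7.79 and 7.89 in shEp400 cells and 9.31, 9.33 and 8.47 in control cells. Control replicate 3 lay near the shEp400 values, and the fall was 2.05-fold (log2 change -1.04, SE 0.26, adjusted p = 0.00889). Its other probes had changes of -0.71 and -0.36, and neither passed over all probes. Slc25a33, the other pyrimidine nucleotide carrier, had 8.25, 8.39 and 7.99 in shEp400 cells and 9.03, 9.15 and 8.97 in control cells. It was 1.79-fold lower without overlap (log2 change -0.84, SE 0.17, adjusted p = 0.00331).

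Slc25a16, linked to coenzyme A transport, had 7.73, 6.97 and 7.71 in shEp400 cells and 8.27, 8.28 and 8.11 in control cells, with shEp400 replicate 2 lowest (log2 change -0.75, SE 0.22, adjusted p = 0.0202). It did not pass with control replicate 1, control replicate 2 or shEp400 replicate 2 left out. Slc25a32, a carrier of folate and flavin cofactors, fell 1.58-fold (adjusted p = 0.0189), and its log2 change of -0.66 was -0.30 without background correction. Its call was lost without control replicate 3 or shEp400 replicate 2. In contrast Slc25a42, a coenzyme A carrier, had 6.74, 6.36 and 6.40 in shEp400 cells and 5.91, 5.76 and 5.97 in control cells. It rose 1.54-fold (log2 change 0.62, SE 0.17, adjusted p = 0.0158), a call lost without background correction (0.27) and without control replicate 2. Slc25a26, the carrier of S-adenosylmethionine, had -0.36 (adjusted p = 0.0941), with separate groups. Slc25a17, a peroxisomal member, and Slc25a39, tied to glutathione import, had log2 changes of -0.06 and -0.03. Slc25a40, the near relative of Slc25a39, and the NAD carrier Slc25a51 were at background on all arrays.

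Of the iron carriers, only Slc25a37 was called. Slc25a37, mitoferrin 1, best known for iron supply to haem in red cell precursors, had 7.43, 7.51 and 7.58 in shEp400 cells and 6.39, 6.90 and 6.60 in control cells. It was higher in every shEp400 sample, by 1.84-fold (log2 change 0.88, SE 0.18, adjusted p = 0.00336), and by 0.51 on the log2 scale without background correction. Slc25a28, mitoferrin 2, had 9.92, 9.80 and 9.32 in shEp400 cells and 9.88, 10.13 and 9.81 in control cells, with overlap (log2 change -0.26, SE 0.20, adjusted p = 0.312). The within-array log2 ratio of Slc25a28 to Slc25a37 was 2.49, 2.28 and 1.74 in shEp400 samples and 3.49, 3.23 and 3.21 in control samples. The groups were separate, with a difference of -1.14 (exact permutation p = 0.1, the smallest possible, 0.167 adjusted over 5 pairs). The ratio of Slc25a24 to Slc25a25 overlapped between groups (difference 0.42, exact permutation p = 0.3).

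Of the carriers grouped with no substrate here, Slc25a14, of the uncoupling protein branch, had 7.51, 7.07 and 6.70 in shEp400 cells and 6.10, 6.49 and 6.15 in control cells. It rose 1.80-fold without overlap (log2 change 0.85, SE 0.23, adjusted p = 0.0128), and by 0.45 on the log2 scale without background correction. Slc25a53 had 5.29, 5.33 and 5.68 in shEp400 cells and 6.11, 6.10 and 5.94 in control cells. It fell 1.53-fold (log2 change -0.62, SE 0.17, adjusted p = 0.0164), a call lost without background correction (-0.22), with normexp fitted without detection p-values (-0.31), with the authors' values (-0.23), or with control replicate 1, control replicate 2 or shEp400 replicate 2 left out. Slc25a30 had 0.49, which passed with control replicate 2 left out (0.73), and Slc25a47 had -0.08. Of the 19 carriers that were not tested, 14 had no detection on any array and the others 1 or 2. The lowest to highest raw signals of all members below the filter ran from 81.1 to 138.9, and no fold is given for them.

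The same windows are shown for the carriers with the 2 largest falls and the largest rise: Slc25a36 at chr9:97110992-97111291 (minus strand), Slc25a5 at chrX:36795347-36795646 (plus strand) and Slc25a20 at chr9:108661886-108662185 (plus strand). Capitals have the same meaning.
Slc25a36: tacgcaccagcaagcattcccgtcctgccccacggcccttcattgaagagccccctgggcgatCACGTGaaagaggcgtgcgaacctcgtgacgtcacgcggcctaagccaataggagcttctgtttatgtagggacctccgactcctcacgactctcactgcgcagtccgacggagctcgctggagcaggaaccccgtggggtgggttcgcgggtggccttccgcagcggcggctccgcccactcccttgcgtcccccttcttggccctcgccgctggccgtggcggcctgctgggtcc
Slc25a5: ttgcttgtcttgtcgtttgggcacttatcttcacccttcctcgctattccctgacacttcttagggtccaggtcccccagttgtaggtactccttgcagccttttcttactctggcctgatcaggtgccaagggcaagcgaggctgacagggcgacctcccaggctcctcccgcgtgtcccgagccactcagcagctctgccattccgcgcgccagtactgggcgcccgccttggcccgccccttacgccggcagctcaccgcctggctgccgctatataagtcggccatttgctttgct
Slc25a20: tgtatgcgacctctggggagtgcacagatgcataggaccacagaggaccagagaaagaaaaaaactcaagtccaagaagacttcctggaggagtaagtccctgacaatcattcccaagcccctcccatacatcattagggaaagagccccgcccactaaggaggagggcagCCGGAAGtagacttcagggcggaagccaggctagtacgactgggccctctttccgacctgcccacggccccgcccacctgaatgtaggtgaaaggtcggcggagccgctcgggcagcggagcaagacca
Slc25a36 held 1 E-box match, Slc25a20 held 1 ETS match and Slc25a5 held none. Over all carrier windows an ETS match was in 7 of 46 (15.2%), an E-box match in 8 of 46 (17.4%) and an NRF1 match in 2 of 46 (4.35%). An E-box match was in 4 of 13 windows of members called lower (30.8%), in 2 of 7 of members called higher (28.6%) and in 3 of 25 of tested members not called. An ETS match was in 2 of 13 (15.4%), 3 of 7 (42.9%) and 9 of 25 (36.0%) of the same windows. Over all windows the shares were 7.15% (E-box) and 8.86% (ETS). These counts are of windows, and a gene may have several. The 7 windows of members called higher come from 5 genes. Both with an E-box match belong to Slc25a14, which has 3 windows.

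**Figure D3:**
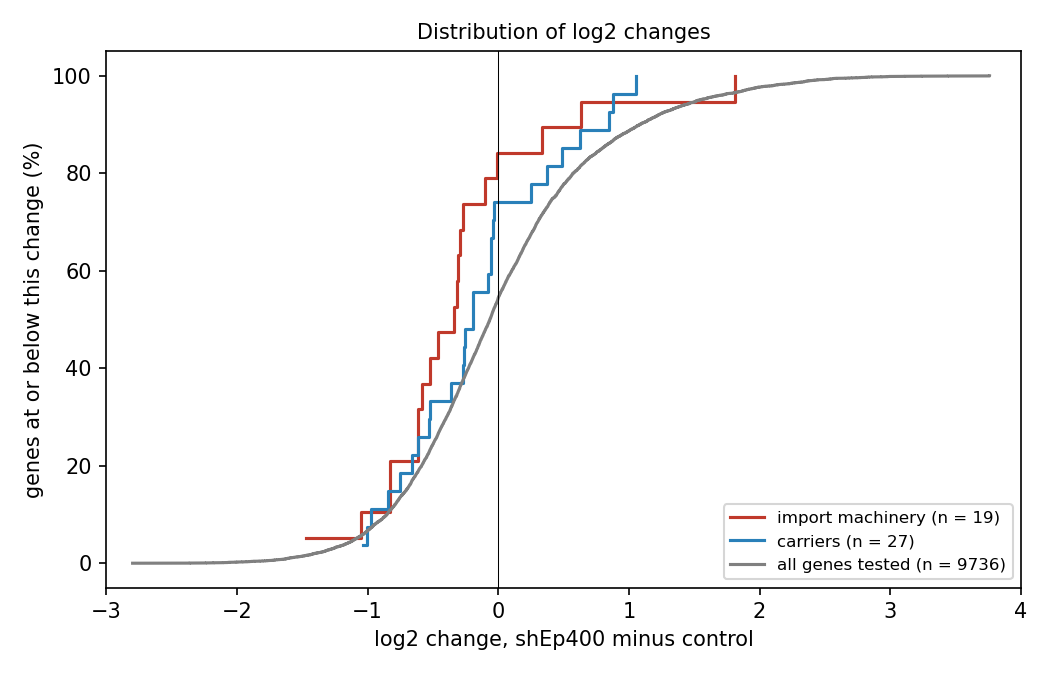
Share of genes (y axis, %) at or below each log2 change, shEp400 minus control (x axis), for 19 import machinery genes, 27 carriers and all 9736 genes tested. Both member curves cross 50% left of the curve of all genes, at -0.34 and -0.20 against -0.06, and neither reaches as far right.

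Several probes of a member gave mostly the same direction. Of 11 import machinery genes with more than 1 passing probe, 10 had all probes on the same side of 0, with a median spread of 0.21 on the log2 scale, and Tomm22 was the exception. Of 9 such carriers all 9 agreed in sign, with a median spread of 0.34 and the widest, 1.11, in Slc25a24. In a further count a gene entered only if all its passing probes were called the same way, a rule chosen after seeing the data. Then 3 of 19 import machinery genes were lower and 1 higher, and 6 of 27 carriers were lower and 4 higher. Of the calls that held in every other setting, Timm9, Tomm22, Tomm40l and Slc25a36 did not meet this rule. Under that rule 36.3% of all genes tested were called, 18.4% lower and 17.9% higher. Over all passing probes 41.3% were called. Across the 46 tested members the log2 change had a Spearman correlation of -0.14 with the mean log2 signal, as a description over genes that share the same 6 arrays.

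**Figure D4:**
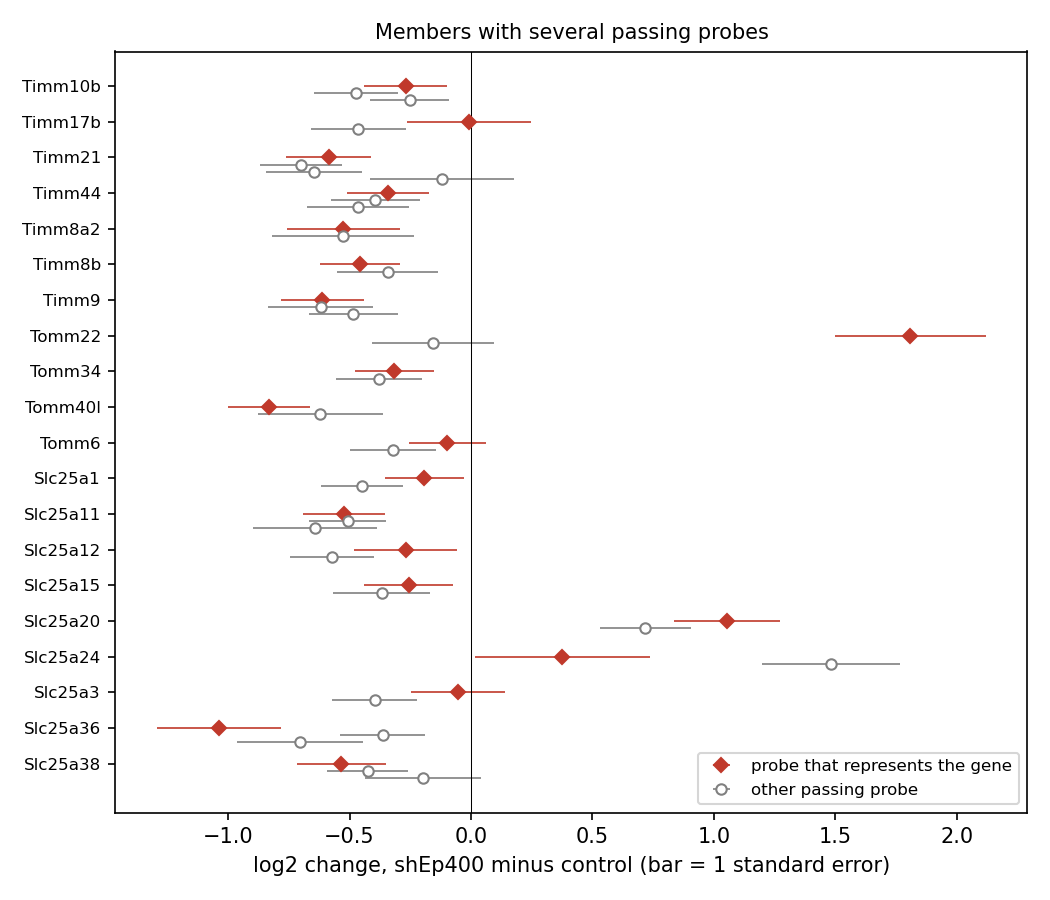
Log2 change, shEp400 minus control, with 1 standard error, of each passing probe for the 20 members with more than 1 such probe; filled diamonds are the probes that represent the gene and open circles the others. The Tomm22 probes lie apart at 1.81 and -0.16, and most others lie close together.

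A list of other import factors, under other gene names, also held more lower than higher calls. The list is broad and takes in Hspe1 and Timmdc1, whose main roles lie outside import. Of 23 listed, 22 were named on the array and 18 were tested, of which 9 were lower (where 23.1% of all genes tested were lower), 1 was higher and 8 did not pass, with a median log2 change of -0.52. Chchd4, which oxidizes and traps proteins of the intermembrane space, the small TIMs among them, was 2.77-fold lower (log2 change -1.47, SE 0.18, adjusted p = 0.000206). Its partner Gfer had a log2 change of -0.64 (adjusted p = 0.0146), which did not pass with control replicate 2 left out (-0.54). Hspe1, the matrix cochaperonin, was 2.17-fold lower, and Timmdc1, a complex I assembly factor, 1.83-fold lower. Romo1, a small inner membrane protein, was 1.90-fold higher (adjusted p = 0.00308). Hspa9, the heat shock protein of the import motor, had -0.34 (adjusted p = 0.0969) and passed in 5 alternative settings, where it lay between -0.68 and -0.34. Samm50, Immp1l and Higd1a were at background.

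Other transporters of the mitochondrial membranes numbered 21 in the list, with 11 tested. Of these 5 were lower (45.5%, against 23.1% of all genes tested) and 2 higher (18.2%, near the 20.6% of all genes), and the median log2 change was -0.22, against -0.06. Sfxn1, a serine transporter, was 1.95-fold lower (adjusted p = 0.00233). Sfxn2, detected on 1 of 3 shEp400 arrays, was 1.85-fold lower, and Abcb8 1.74-fold lower. These falls were smaller without background correction, with log2 changes of -0.29 for Sfxn2 and -0.44 for Abcb8. The control arrays alone were enough for Sfxn2 to pass the filter, which favours a lower value in shEp400 cells. Sfxn2 is counted among the 5 lower genes. Mtch1, a carrier-like protein of the outer membrane, was 1.85-fold higher (log2 change 0.89, and 0.54 with 75th percentile scaling), while its relative Mtch2, an insertase of the outer membrane, was lower (-0.63, adjusted p = 0.0115), a call that the mean of its probes did not give (-0.39). Sfxn4, whose probe was above background on 0 of 3 control arrays, was at least 1.5-fold higher (adjusted p = 0.00141), and its log2 change was 0.31 without background correction. Its probe passed the filter through the shEp400 group alone, which favours a higher value there, and Sfxn4 is counted among the 2 higher genes. The channels Vdac1 and Vdac3 had -0.22 and -0.06 and did not pass, and Vdac2 had -0.46 and was called lower (adjusted p = 0.0416), but not under cyclic loess or in 5 of 6 fits that left out 1 array.

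**Figure D5:**
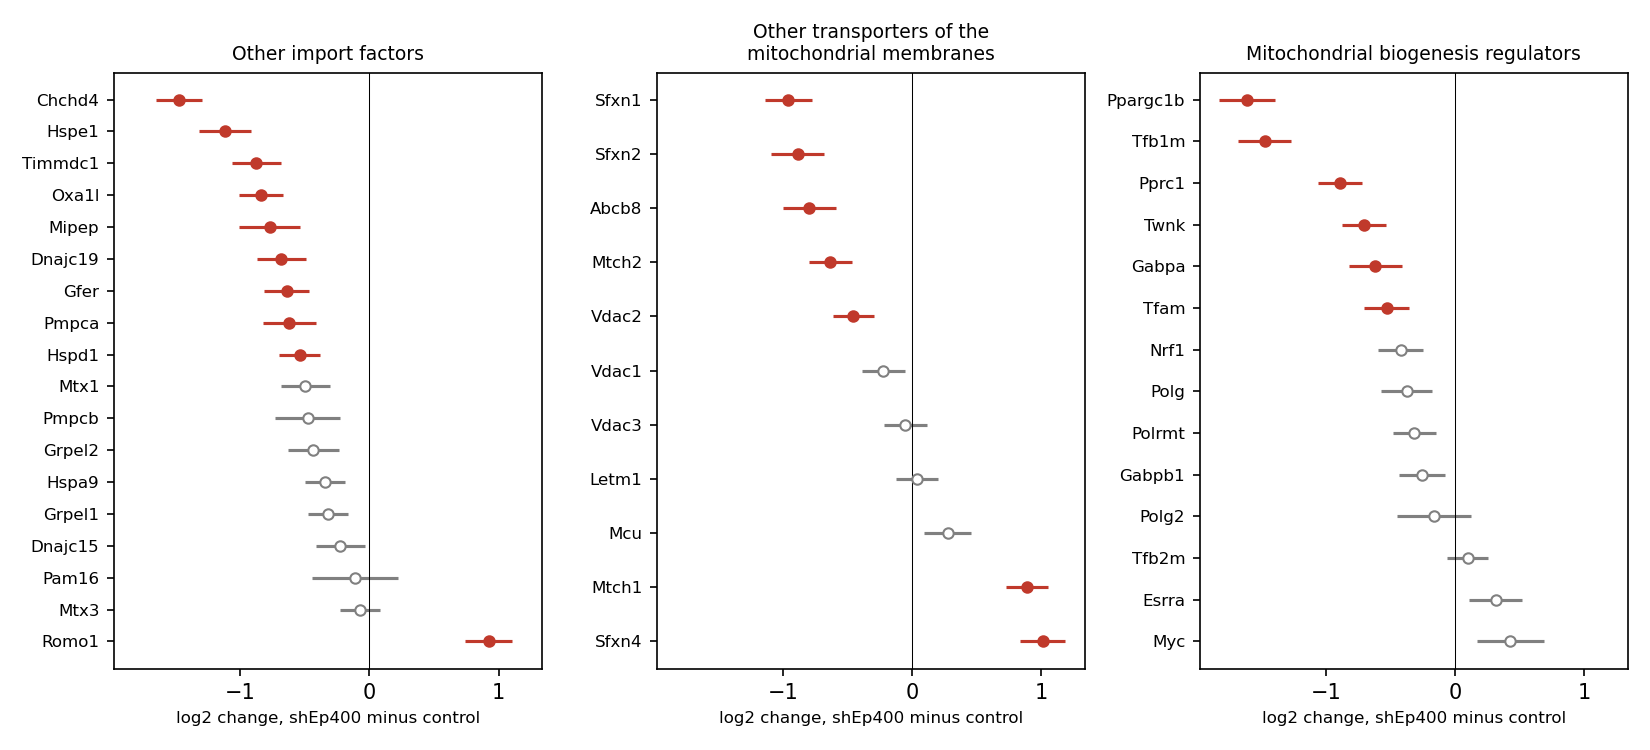
Log2 change, shEp400 minus control, with 1 standard error (x axis) for the tested genes of 3 further lists, from other import factors to biogenesis regulators; filled points were called. Chchd4, Ppargc1b and Tfb1m lie near -1.5, and Romo1, Mtch1 and Sfxn4 lie near 1.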

How the data were processed

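Expression was read on Illumina bead arrays, 1 per sample, for 45281 probes. The authors deposited linear signal intensities without normalization, and the deposited table pairs every intensity column with detection p-values. The submitters' processing notes name GenomeStudio, without settings. The authors' processed intensities, whose array medians all lie at 114, served as an alternative.

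Log2 values came from neqc in limma 3.58.1 (R 4.3.3): background from the detection p-values, offset 16, quantile normalization. In the platform annotation 34885 probes had 1 symbol, 18 had several and 10378 had none; 34807 matched RefSeq by Entrez ID with 0 symbols changed. Passing probes numbered 14238, and the brightest on average represented each of 9736 genes. Groups were compared with lmFit and eBayes over all genes, without covariates (4 residual degrees of freedom), two-sided, with Benjamini-Hochberg adjustment. The precision is limited by the number of arrays. Members, gene lists and tests were chosen with earlier results of these data known. Values on every array are given for the 5 largest rises and falls among called members of each set. They are also given for further members of the same role. Other genes come from fixed lists, up to 3 rises and 3 falls each. Gfer, Hspa9, Mtch2, the Vdac genes, Gabpa and Nrf1 were added after their values were seen. Where no array of a group detected a probe, a fold is a bound: the mean of the bright group against the dim group's mean, each dim array entering at its lowest detected level unless the probe itself read higher. Quantile normalization and the limma fit were run on simulated data with far fewer changed genes than were called here. Background correction, the filter and the choice of probe were not part of that run.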

Additional observations from a re-analysis of the deposited data

How the results depend on the processing

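Over 15 alternative settings, 624 of 685 values of the 46 tested members kept their side of the threshold, 46 lost a call and 15 gained one. No called member changed direction. Sign changes were limited to 7 members that did not pass in either setting, with values from -0.41 to 0.17. With cyclic loess, 4 import machinery genes were lower, and the medians were -0.20 (import), -0.05 (carriers) and 0.05 (all genes, of opposite sign to -0.06), with Ep400 at -0.42 (adjusted p = 0.0631); 59.4% of all called genes were then higher, against 47.2%. With 75th percentile scaling, 1 import machinery gene was higher and the medians were -0.52, -0.27 and -0.17. These 2 scalings moved the median of all genes by 0.11 and -0.11; relative to it, the import median was -0.28, and -0.25 and -0.35 under them, and the carrier median -0.13, and -0.09 and -0.10. Centring on probes detected on all arrays gave -0.48 for import and -0.14 for all genes. Without background correction, and with the authors' values, import had -0.29 and all genes -0.04, as all genes had with normexp without detection p-values. Among probes detected on all arrays all genes had -0.11. With no filter 1 import gene was higher and all genes had -0.02, and with the mean of passing probes import had -0.40. Requiring all passing probes gave 3 lower and 1 higher import genes. Leaving out 1 array gave 4 to 8 lower and 1 to 2 higher import machinery genes, 5 to 8 lower and 4 to 5 higher carriers, medians of -0.42 to -0.32, -0.27 to -0.14 and -0.08 to -0.05 for import, carriers and all genes, 3179 to 4380 calls in all, and -0.63 to -0.50 for Ep400 (adjusted p = 0.0616 without control replicate 1). The cause of these differences was not tested. A fit with fewer arrays has fewer residual degrees of freedom, and the part of this was not tested either. Calls over all genes numbered 4380 without shEp400 replicate 1, more than the 4251 of the full fit. They were fewer than 4251 in every other fit that left out 1 array. No paired analysis was possible because the labels give no replicate numbers. Probes near background limit what can be said of 22 members.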

Other observations

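Regulators of mitochondrial gene expression, a list of 15 genes on the array of which 14 were tested, had 6 lower and 0 higher in shEp400 cells (42.9% lower, against 23.1% of all genes tested), with a median log2 change of -0.40. Tfb1m, which modifies the mitochondrial ribosomal RNA, was 2.78-fold lower (log2 change -1.48, SE 0.21, limma adjusted p = 0.000489), and -0.87 without background correction. Pprc1, a coactivator of nuclear genes for mitochondrial proteins, was 1.85-fold lower (adjusted p = 0.00246). Ppargc1b, a related coactivator, was detected on 3 control arrays and 0 shEp400 arrays. It passed the filter through the control group alone, which favours a lower value in shEp400 cells, and it is counted among the 6 lower genes. With that limit, Ppargc1b was at least 2.46-fold lower (adjusted p = 0.000399), and its log2 change was -0.57 without background correction. Gabpa, an ETS factor, had a log2 change of -0.62 (adjusted p = 0.0336), a call lost with cyclic loess, with no filter and with control replicate 1 or 2 or shEp400 replicate 2 or 3 left out. Nrf1 had -0.42 (adjusted p = 0.0718) and passed in 6 alternative settings, at -0.73 with the mean of its probes. Both were named after their values were seen. The summed feeder marker signals beside these values were 36604 to 55441 in shEp400 samples and 9046 to 9924 in control samples, and their part in the result was not tested.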
